A study of Homo sapiens with 20 samples.

Results

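The transcriptome of A549 cells was compared before and after decitabine (DAC) by mRNA-seq. Its members were the 13531 genes, of 36076 in the table, with an FPKM (fragments per kilobase of gene and sequencing depth) of at least 1 in the A549 Mock or the A549 DAC library, and 11294 of them were protein coding. A549 is an established human lung adenocarcinoma cell line. The DAC library came from cells given 100 nM DAC for 72 h and then grown for 3 days without the drug, and the Mock library from cells given phosphate-buffered saline (PBS). The same treatment was applied to the 5 other lung cancer lines of the series, CL1-0, CL1-5, PC9, H1299 and H1792, and each line had 1 Mock and 1 DAC library. There was no replicate within A549, so its values are described as effect sizes and set beside the ratios of the other 5 lines, which differ from A549 in origin as well as in response.

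DAC is a cytidine analog that is built into newly made DNA, where it traps DNA methyltransferases and leads to their loss, so that methylation is diluted as cells divide. In normal tissue, methylation of promoters rich in CG dinucleotides keeps many germline genes, some imprinted alleles and genes of the inactive X chromosome silent. Loss of methylation is also known to raise the expression of endogenous retroviral elements, whose double-stranded RNA can set off an interferon response. The libraries held 24686736 (Mock) and 24720109 (DAC) reads on genes, nearly the same total, and the other lines had from 22234485 to 59735913.

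The A549 label was checked against markers of the line. All 9 genes of an A549 and epithelial identity list were members and 4 of them were at least 2-fold lower in DAC, among them the aldehyde dehydrogenase ALDH1A1 with 3351 FPKM in Mock and 1285 in DAC and the aldo-keto reductase AKR1B10 with 2903 and 501. The share of all members at least 2-fold lower was 7.61%. CDKN2A, a tumour suppressor gene that A549 is known to lack, had 0 reads in both libraries. Of 21 leukocyte markers 3 were members and their summed FPKM was 6.95 in Mock and 13.9 in DAC, while the pan-leukocyte gene PTPRC stood at 0 and 0.0236 FPKM. Whether the markers of other cells have a part in the results was not tested. Of 14 fibroblast and endothelial markers only COL1A1 was a member (1.06 and 3.37 FPKM), and the summed FPKM was 1.18 and 4.77.

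For each gene the ratio was taken as log2((DAC + 0.1)/(Mock + 0.1)) of the FPKM, so a value of 1 is a 2-fold higher level after DAC and the added 0.1 shrinks the ratio of low genes. Of the members, 1457 (10.8%) were at least 2-fold higher and 1030 (7.61%) at least 2-fold lower, 617 and 106 passed 4-fold, and the quartiles of all ratios were -0.51 and 0.45 around a median of -0.05. A ratio above 0 was found in 6392 of the 13531 members, which stands beside the counts by sign in the lists below. On the deposited scale A549 had more genes past 2-fold in both directions than any other line, where 463 (CL1-0) to 1129 (H1792) genes were higher and 152 (CL1-0) to 675 (H1792) lower. In a bulk library a higher level in every cell and expression in some of the cells cannot be told apart. The membership rule itself favours genes that differ, because 1410 members reached an FPKM of 1 in DAC only and 567 in Mock only. Among the 11554 members at FPKM 1 or more in both libraries the balance was the other way, with 522 higher (4.52%) and 743 lower (6.43%). At the edge of the rule, the 331 genes whose higher FPKM lay between 1.0 and 1.1 had a median ratio of 0.32, and the 395 genes between 0.9 and 1.0, just outside, had 0.445.

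**Figure D1:**
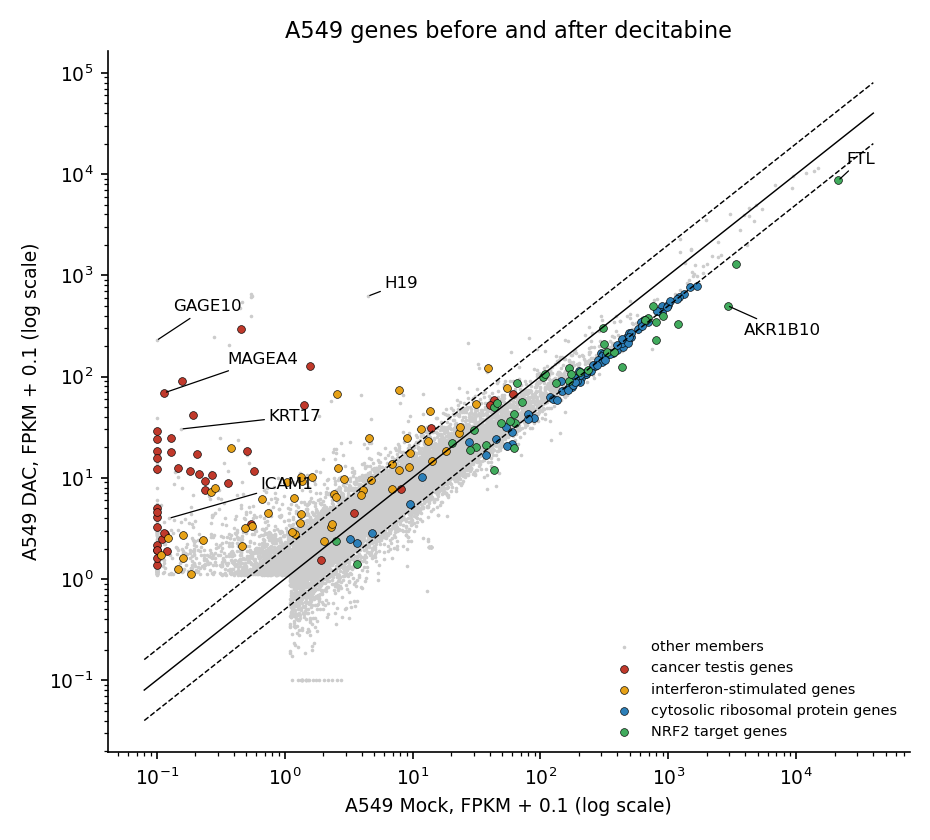
FPKM + 0.1 of each A549 member in the Mock library (x axis, log scale) and the DAC library (y axis, log scale), without genes of chromosome Y and XIST, with 4 gene lists coloured, the solid line at equality and the dashed lines at 2-fold. Cancer testis genes gather at the left edge, where Mock was near 0, while ribosomal protein genes and most NRF2 target genes lie under the solid line. Of these, 41 of 82 ribosomal protein genes and 13 of 40 NRF2 target genes are at or under the lower dashed line.

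The deposited FPKM were scaled by the authors between libraries and did not sum to the same total, with 416327 in A549 Mock and 326951 in A549 DAC. Bringing every library to a common sum would raise each A549 ratio by up to 0.35, and then 2411 members would be at least 2-fold higher and 385 lower. Level and gene length also went with the ratio in A549. Among protein-coding genes at FPKM 1 or more in both libraries, the median ratio was 0.10 for genes at 1 to 10 FPKM in Mock, -0.37 at 10 to 100 and -0.81 at 100 to 1000. For the 36 genes at 1000 or more the median ratio was -0.67. Across quintiles of gene length it went from -0.60 in the shortest (2055 genes) over -0.29, -0.07 and 0.085 to 0.31 in the longest (2054 genes). No other line had as wide a span, although CL1-0 (-0.24 to 0.06) and PC9 (-0.12 to 0.03) had the same direction, and CL1-5 (0.12 to -0.10), H1299 (0.05 to -0.04) and H1792 (0.25 to -0.28) the opposite. After the median of genes of like length was subtracted in each line, 1589 A549 members were at least 2-fold higher and 434 lower (11.7% and 3.21%). The count of lower genes was then under that of H1792 (732), H1299 (607) and CL1-5 (472), while that of higher genes stayed above the 581 (CL1-0) to 986 (H1792) of the other lines, so the genes of lower level depended on the scale more than those of higher level. What set the trend with length was not tested, and length-centred values are given below where they matter.

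**Figure D2:**
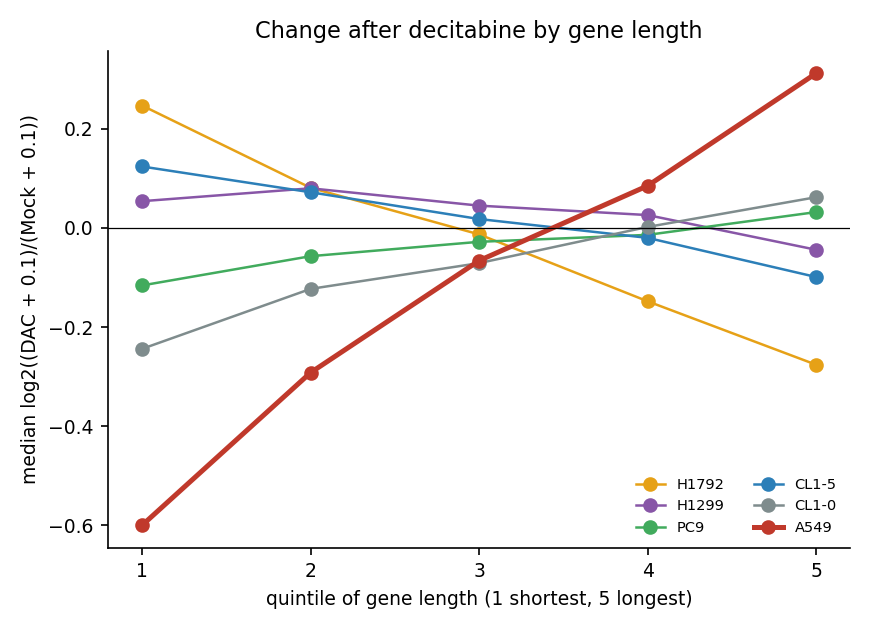
Median log2((DAC + 0.1)/(Mock + 0.1)) in the 6 lines (y axis) by quintile of gene length from shortest to longest (x axis), over the protein-coding genes at FPKM 1 or more in both A549 libraries. The A549 line climbs from -0.60 to 0.31, the widest span of the 6.

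A gene was called switched on when its FPKM was under 0.1 in Mock and at least 1 in DAC, and 310 members (2.29%) met this in A549, more than in H1299 (187), H1792 (172), PC9 (145), CL1-5 (111) or CL1-0 (79). These counts set no limit on reads, and in A549 214 of the 310 had 20 or more in DAC. That limit was not counted in the other lines, and H1299 was sequenced deeper (59735913 reads on genes in Mock, 24686736 in A549 Mock). This order of the lines was known beforehand. The opposite change was rare, with 24 genes switched off, of which 1 had 20 or more reads in Mock. The 4 switched-on genes with the highest DAC FPKM that had a RefSeq promoter were GAGE10, GAGE1, MAGEA4 and PAGE2B, all on chromosome X, and their promoters are shown because CG dinucleotides are the places where human DNA carries the methylation that DAC removes. ICAM1, the adhesion molecule studied with this drug in these lines, was also switched on and is shown beside them. Each stretch runs 5′ to 3′ on the strand of the gene over 300 bases, from 250 before to 50 after the start listed by RefSeq on GRCh38.p14, with each CG dinucleotide, which reads the same on both strands, in capitals. GAGE1 and MAGEA4 have more than 1 listed start, and the first is shown.
GAGE10, chrX:49303396-49303695, plus strand: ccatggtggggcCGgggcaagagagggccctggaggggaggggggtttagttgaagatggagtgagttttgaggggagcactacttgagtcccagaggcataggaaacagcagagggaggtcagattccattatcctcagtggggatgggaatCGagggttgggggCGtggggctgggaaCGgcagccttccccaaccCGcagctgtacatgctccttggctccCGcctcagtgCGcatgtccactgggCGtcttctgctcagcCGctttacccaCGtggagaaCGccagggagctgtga
GAGE1, chrX:49598763-49599062, plus strand: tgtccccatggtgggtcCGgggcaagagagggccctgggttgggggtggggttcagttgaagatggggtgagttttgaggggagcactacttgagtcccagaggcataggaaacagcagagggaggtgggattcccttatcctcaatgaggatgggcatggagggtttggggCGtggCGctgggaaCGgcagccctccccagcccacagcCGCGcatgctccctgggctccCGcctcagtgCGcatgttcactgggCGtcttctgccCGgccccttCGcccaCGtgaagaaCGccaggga
MAGEA4, chrX:151912224-151912523, plus strand: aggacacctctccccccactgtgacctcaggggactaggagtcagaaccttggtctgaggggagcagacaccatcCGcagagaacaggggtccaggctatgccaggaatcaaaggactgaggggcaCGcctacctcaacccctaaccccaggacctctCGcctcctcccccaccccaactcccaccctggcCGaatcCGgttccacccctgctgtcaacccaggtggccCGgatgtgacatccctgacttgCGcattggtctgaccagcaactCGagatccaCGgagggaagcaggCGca
PAGE2B, chrX:55074780-55075079, plus strand: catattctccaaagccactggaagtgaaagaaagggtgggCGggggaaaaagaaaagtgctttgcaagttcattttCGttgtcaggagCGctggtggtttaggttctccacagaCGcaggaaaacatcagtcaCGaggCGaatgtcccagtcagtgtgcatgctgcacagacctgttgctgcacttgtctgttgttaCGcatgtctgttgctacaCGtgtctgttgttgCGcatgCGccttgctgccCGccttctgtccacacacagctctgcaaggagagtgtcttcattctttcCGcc
ICAM1, chr19:10270870-10271169, plus strand: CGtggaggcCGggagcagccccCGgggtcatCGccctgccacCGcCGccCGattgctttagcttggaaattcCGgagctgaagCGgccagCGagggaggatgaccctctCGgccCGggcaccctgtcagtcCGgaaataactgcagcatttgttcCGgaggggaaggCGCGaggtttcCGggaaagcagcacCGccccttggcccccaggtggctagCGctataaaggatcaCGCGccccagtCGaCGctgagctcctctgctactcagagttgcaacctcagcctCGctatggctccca
The 4 germline gene windows held 11, 13, 10 and 12 CG dinucleotides and the ICAM1 window 24.

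GAGE10, a member of a family of near-identical X-linked antigen genes (ENSG00000215274, chrX:49160125-49176320 on GRCh37), had 0 reads in Mock and 2990 in DAC, or 227 FPKM, at least 844-fold higher against a floor of 3 reads. MAGEA4, which encodes a melanoma antigen family protein (chrX:151080967-151093643), went from 0.0152 to 69.0 FPKM (1 and 5381 reads), and counting error alone leaves its log2 read ratio between 9.68 and 17.46 (95%). GAGE1 went from 0.0577 to 89.3 FPKM, PAGE2 from 0 to 28.6 (479 reads, at least 135-fold) and PAGE5 from 0 to 24.0 (452 reads, at least 128-fold). All of these were silent or nearly so in Mock and well covered in DAC. Reads of the GAGE genes, PAGE2 and PAGE2B, SSX2, CTAG1A and the VCX genes can map to several copies, so the level of each copy is uncertain and the family is the safer unit. The intervals and floors cover counting error only, not the spread between cultures.

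Of the 310 switched-on genes, 136 were protein coding and 59 long non-coding, 205 had 0 reads in Mock and 214 had 20 or more in DAC. Most were expressed at a low level after DAC, with a median of 1.72 FPKM and 27 genes at 10 or more. Chromosome X held 54 of them, or 17.4%, against 3.74% of all members, and 51 of the 214 with 20 or more reads. Most members were expressed in both libraries, and the share of chromosome X among genes silent in Mock was not counted. Some of the 54, such as the GAGE genes, are near-identical copies that can share reads. Chromosome Y held 19 of the 310, which are not named. At the limit of the rule, 18 genes stood within 0.01 FPKM under the silent level and 10 within 0.01 above it. The DAC limit mattered more, since 122 genes remained with a DAC FPKM of at least 2. Outside the cancer testis families, well-covered examples were KRT17, a keratin of basal and hair follicle epithelium (0.0552 to 30.2 FPKM, 3 and 1938 reads), GTSF1, which acts in the germline piRNA pathway (0 to 11.3 FPKM, 0 and 721 reads), SLC12A3, the sodium-chloride cotransporter of the kidney (0.0076 to 5.30 FPKM), and NPR1, a natriuretic peptide receptor (0.0839 to 5.06 FPKM). The last 3 were chosen after their values were seen.

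The other lines shared part of this set. Of the 310 genes, 213 were switched on in A549 and in no other line, 61 in 1 other line and 36 in 2 or more, of which 3 were switched on in all 6 lines. No limit on reads was set here, so genes with few reads are among them. The 3 shared by all, chosen for this pattern, were PNMA5, a paraneoplastic antigen family gene (0 to 12 FPKM in A549), TKTL1, a transketolase-like gene (0 to 4.93), and DAZL, an RNA-binding protein of germ cells (0 to 2.38). The overlap was 38 genes with CL1-5 and 38 with H1792, 32 with PC9, 32 with H1299 and 22 with CL1-0. Given as shares of each line's own switched-on genes these were 34.2%, 22.1%, 22.1%, 17.1% and 27.8%, and as shares of the A549 genes 12.3%, 12.3%, 10.3%, 10.3% and 7.10%. A gene can be switched on only where it was silent, and 143 of the 310 had an FPKM of at least 1 in Mock of another line, as the GAGE genes did in CL1-0, CL1-5 and H1299. Another 98 stayed under FPKM 1 in both libraries of all 5 other lines.

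Accessible chromatin was measured in A549 by Omni-ATAC-seq, where a cutting and tagging enzyme marks DNA that is not packed away, with 1 library per treatment. The Mock library had 58734 broad peaks and the DAC library 78199. Among the 136 switched-on protein-coding genes, 31.6% (exact binomial 95% interval 23.9 to 40.1) had a peak annotated within 3000 bp of the start in Mock and 52.9% (44.2 to 61.55) in DAC. Of the 93 without a peak in Mock, 36 had one in DAC (38.7%, 28.8 to 49.4), while 7 of 43 peaks were no longer listed. MAGEA4, PAGE2, PAGE5, MAGEA1, PNMA5, TEX11, GTSF1 and KRT17 were among the 36, GAGE10, GAGE1, PAGE2B and TKTL1 had no peak in either library, and ICAM1 and DAZL were among the 7. Near ICAM1 the Mock library listed a peak of low enrichment upstream of the annotated start, and the DAC library listed none in that window.

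In the remaining protein-coding genes the peak share moved less. Other members at least 2-fold higher had 75.7% in Mock and 79.6% in DAC, and 24.1% (18.1 to 30.8) of those without a peak had one after DAC. Members between 2-fold lower and higher had 85.5% and 86.4%, with 20.6% (18.5 to 22.8) newly listed, members at least 2-fold lower had 81.9% and 81.6%, and genes under 0.1 FPKM in both libraries had 37.8% and 44.5%, with 18.9% (17.3 to 20.5) newly listed. The interval of the newly listed share in switched-on genes did not overlap those of the steady and silent genes. It met that of the other higher genes. These intervals count genes as independent, although genes are not replicates, and they do not cover the spread between cultures. Whether they overlap, here and below, is therefore a description and does not test the classes against each other. Because the DAC library had more peaks, the count was repeated with equal numbers of the strongest peaks. The switched-on genes then had 31.6% and 41.9%, and 26.9% (18.2 to 37.1) were newly listed, against 17.2% (15.2 to 19.2) of the steady members and 12% (10.7 to 13.4) of the silent genes. The interval of the switched-on genes then overlapped that of the steady members.

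The start regions of the switched-on genes held fewer CG dinucleotides than those of most genes. In windows of 300 bases read from GRCh37, the median was 11 (quartiles 6 and 19) in switched-on genes, 17 (6 and 30) in other members at least 2-fold higher, 24 (14 and 32) in members between 2-fold lower and higher, 22 (14 and 32) in lower members and 7 (3 and 18) in genes silent in both. Over all protein-coding genes it was 19 (7 and 30). A window with 20 or more CG was found for 24.3% of switched-on genes and for 23.6% of genes silent in both, against 62.7% of the members between 2-fold lower and higher and 48.97% of all. In this measure the switched-on genes stood nearer to silent than to steadily expressed genes.

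Cancer testis genes, which are normally expressed in germ cells and are known targets of promoter methylation, had the highest median ratio of the lists described. Of 81 genes measured, 44 were members, 38 were at least 2-fold higher and 0 lower, and the median ratio was 5.19, beside 10.8% higher and a median of -0.05 over all members. With no limit on FPKM the list median was 2.88. Of the 44, 35 were members through DAC only and 25 were switched on. The 9 already at FPKM 1 or more in both libraries had a median of 0.39, with 3 past 2-fold, so the high ratios came mainly from genes that were off in Mock. Among the 9, MAGEA3 went from 13.8 to 31.1 FPKM, MAGEA6 from 40.2 to 52.6, PRAME from 43.1 to 59.0 and XAGE1B from 61.3 to 67.6. The GAGE13 level went from 0.354 to 292 FPKM, and in the other lines it was already 1068 to 3531 in Mock of CL1-0, CL1-5 and H1299 and 2.87 and 5.77 after DAC in PC9 and H1792. In 22 of the 44 the A549 ratio was above that of every other line, beside 23.5% of all members, but membership was set by the A549 levels, which favours high A549 ratios. The median of the same genes was 4.199 in H1792, 2.58 in PC9, 0.96 in CL1-5, 0.86 in H1299 and 0.20 in CL1-0.

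Germline and meiosis genes outside those families followed in part. Of 65 genes measured, 18 were members, 11 at least 2-fold higher and 1 lower, beside 10.8% and 7.61% of all members. The median was 1.76. Of the 18, 10 were members through DAC only, and with no limit on FPKM the median was 0.82. TEX11, an X-linked meiosis gene, went from 0.0138 to 2.65 FPKM (1 and 226 reads), DPPA2, a gene of early embryos, from 0.0337 to 2.74 (1 and 96 reads), and STRA8, which is needed to enter meiosis, from 0 to 1.87 (0 and 47 reads). DAZL went from 0 to 2.38 FPKM, at least 61.8-fold, with ratios of 4.19 to 6.40 in the other lines. The 7 members expressed in both libraries had a median of -0.07, and among the 7 was ZP3, which encodes a coat protein of the egg (20.02 to 7.37 FPKM).

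Interferon-stimulated genes, which are raised by type I interferon and limit viral replication, were the next group. All 53 members had a ratio above 0, and 36 were at least 2-fold higher and 0 lower, beside 10.8% and 7.61% of all members. The median was 1.69. Unlike the cancer testis genes, most were already expressed: among the 37 at FPKM 1 or more in both libraries 20 were past 2-fold and the median was 1.215. ISG15, a ubiquitin-like modifier, went from 2.48 to 67.5 FPKM (50 and 1608 reads), IFI27, a mitochondrial interferon-induced protein, from 0.282 to 19.7 (25 and 2065), OASL, a relative of the oligoadenylate synthetases, from 0.186 to 7.83 (14 and 697), and BST2, which tethers virus particles, from 0.167 to 7.10 (4 and 201). The A549 ratios of ISG15, IFI27 and OASL (4.71, 5.70 and 4.80) were above those of all other lines, whose highest values were 3.21, 4.64 and 2.80, whereas BST2 at 4.75 lay inside a range of 2.56 to 5.99. Over the list, A549 was above the other lines in 15 of 53 genes, close to the 23.5% of all members. CL1-5 had a higher median (2.37), and the other lines had 0.065 (CL1-0) to 0.41 (H1299). USP18, a brake on interferon signalling, and UBE2L6, which attaches ISG15, stood at 0.16 and 0.00, and were chosen after their values were seen.

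Antigen presentation genes were past 2-fold about as often as all members. Of 25 members 3 were at least 2-fold higher, beside 10.8% of all, and 1 was lower, and the median was 0.205. The 3 were CD74, the invariant chain of class II molecules (0.0147 to 1.34 FPKM), NLRC5, an activator of class I genes (0.339 to 1.11), and ERAP1, a peptide-trimming enzyme (2.43 to 6.26). The class II editor HLA-DMB was lower, at 4.26 FPKM in Mock and 0.934 in DAC, with ratios of -0.56 to 0.48 in the other lines, where it was expressed at 0.138 FPKM or less. HLA-B went from 10.8 to 19.6 FPKM and B2M, the shared light chain of class I, from 44.9 to 60.3, and neither ratio was outside the range of the other lines. The list median was 1.19 in CL1-5 and -0.05 to 0.62 in the other 4.

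ICAM1, the ligand through which leukocyte integrins hold on to target cells (ENSG00000090339, chr19:10381769-10397291 on GRCh37), went from 0.0252 to 3.88 FPKM in A549 (2 and 364 reads), and counting error leaves the log2 read ratio between 5.41 and 10.32. In Mock the other lines had 0.0800, 3.20, 8.13, 1.76 and 5.38 FPKM in CL1-0, CL1-5, PC9, H1299 and H1792, and in DAC 0.984, 17.6, 30.9, 18.2 and 27.6. The A549 ratio of 4.99 was above the 1.91 to 3.30 of the other lines, but with 1 FPKM added in place of 0.1 it was 2.25, under the 2.80 of H1299 and above the other 4. In A549 the level after DAC was lower than in 4 of the 5. Over the 36 members of the list of ligands and adhesion molecules for gamma delta T and NK cells, 5 were at least 2-fold higher and 1 lower, beside 10.8% and 7.61% of all members, and the median was 0.18, with -0.23 to 0.32 in the other lines. RAET1E, a ligand of the NKG2D receptor, went from 0.606 to 2.66 FPKM and NCR3LG1, the ligand of NKp30, from 0.674 to 2.74, while ULBP1, another NKG2D ligand, was lower (4.99 to 1.56). The other higher genes, named after their values were seen, were LGALS9 (0.417 to 1.38) and RAET1G (1.04 to 2.42). A549 was above the other lines in 12 of 36 genes, beside 23.5% of all members. MICA, a stress-induced NKG2D ligand named here after its values were seen, went from 10.3 to 6.98 FPKM.

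Targets of NF-kappaB, the transcription factor of inflammatory signalling, had 36 members, 11 at least 2-fold higher and 2 lower, beside 10.8% and 7.61% of all members. The median was 0.57 in A549 and 0.12 to 1.41 in the other lines. The 29 at FPKM 1 or more in both libraries had a median of 0.22, with 5 higher and 2 lower. SAA1, an acute-phase protein, went from 0.366 to 8.94 FPKM (6 and 173 reads), CX3CL1, a membrane-bound chemokine, from 0.101 to 1.53, C3, the central complement component, from 2.43 to 17.6, and CCL26, an eosinophil chemokine, from 1.65 to 7.0. The C3 ratio of 2.81 stood beside 2.77 in CL1-5 and 0.28 to 0.84 in the others. The 2 lower members were the neutrophil chemokines CXCL2 (11.7 to 4.93 FPKM) and CXCL3 (2.84 to 1.25).

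Proliferation genes seldom passed 2-fold. Of 59 members 0 were at least 2-fold higher and 4 lower, beside 7.61% of all members, and 3 had a ratio above 0. The median was -0.51, or -0.37 after centring on length and -0.16 on the common sum. The 4 were PTTG1, the securin of chromosome separation (95.8 to 36.2 FPKM), GINS2, a subunit of the replication helicase (27.1 to 10.8), UBE2C, a ubiquitin-conjugating enzyme of mitotic exit (116.6 to 48.97), and E2F1, a driver of S-phase genes (36.2 to 17.5). PTTG1 at -1.40 and E2F1 at -1.05 lay under the lowest other line (-0.42 and -0.48). The other medians ran from -1.01 in H1792 to 0.47 in H1299, so A549 was inside them. The cell cycle inhibitor CDKN1A went from 36.5 to 70.0 FPKM, a ratio of 0.94 inside the 0.04 to 1.35 of the other lines. MKI67, the usual proliferation marker, went from 24.99 to 29.6 FPKM and was picked after its values were seen.

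The enzymes that DAC acts on were also measured. DNMT1, the maintenance methyltransferase, went from 14.2 to 14.9 FPKM (ratio 0.07), DNMT3B, a de novo methyltransferase, from 7.38 to 18.9 (1.34), DNMT3A from 1.42 to 2.54 (0.79) and UHRF1, which brings DNMT1 to replicating DNA, from 14.3 to 20.7 (0.54). DNMT3B was higher after DAC in all 6 lines, with ratios of 0.21 to 1.35 in the others, and A549 lay just inside them. Of the 19 members of the DNA methylation list 3 were at least 2-fold higher and 0 lower, beside 10.8% and 7.61% of all members. Besides DNMT3B the higher genes were TET2, which oxidises methylcytosine (0.36 to 1.003 FPKM), and ZBTB38, a reader of methylated DNA (5.25 to 11.8). The median of 0.43 was 0.07 after centring on length, and these are long genes, with a median of 7098 bases against 4326 over all members.

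Genes of DAC uptake and metabolism were past 2-fold lower about as often as all members. Of 20 members 0 were at least 2-fold higher and 2 lower, beside 10.8% and 7.61% of all members. The 2 were DCTPP1, which hydrolyses deoxycytidine triphosphate and its analogs (68.7 to 30.4 FPKM), and NT5C, a nucleotidase (38.4 to 18.5). A549 was under every other line in 7 of the 20 and above in 4, beside 28.2% and 23.5% of all members. DCK, the kinase that activates the drug, went from 8.03 to 6.92 FPKM and CDA, the deaminase that inactivates it, from 15.6 to 16.3; both were picked for their role. CDA stood at 0.06 in A549 and at 0.52 to 4.22 in the other lines. The list median was -0.245, 0.10 on the common sum and 0.01 after centring on length, so its sign depended on the scale.

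Among expressed genes, lower levels were common in targets of NRF2, the antioxidant transcription factor, which A549 is known to hold active through a mutated KEAP1. Of 40 members 13 were at least 2-fold lower and 0 higher, 36 had a ratio of 0 or under, and the median was -0.77, with -0.42 on the common sum and -0.40 after centring on length, where PC9 was lower at -0.46. Of all members 7.61% were at least 2-fold lower. AKR1B10, a retinal and aldehyde reductase (ENSG00000198074, chr7:134212319-134226164 on GRCh37), went from 2903 to 501 FPKM (108500 and 22092 reads), NR0B1, a nuclear receptor corepressor, from 43.4 to 11.8, AKR1C2 from 1199 to 330 and AKR1C1 from 437 to 125, the last 2 being near-identical hydroxysteroid dehydrogenases whose reads are hard to separate. FTL, the ferritin light chain, was the most abundant gene of A549 Mock with 21311 FPKM and had 8654 in DAC, a ratio of -1.30 beside -0.52 to 0.52 in the other lines. AKR1B10 stood at -2.54 beside -1.77 (PC9) to 0.98 (H1299), but its Mock level in the other lines was at most 107 FPKM. A549 was under every other line in 21 of the 40 (14 after centring on length), beside 28.2% (20%) of all members. The genes for NRF2 (NFE2L2) and KEAP1 stood at -0.17 and -0.26, and members of the list such as TXNRD1 (307 to 304 FPKM) and GCLM (30.1 to 29.5), picked after their values were seen, were nearly level. On the common sum and with centring on length the median of the list kept its sign. Level was not centred, and protein-coding genes at 1000 FPKM or more in Mock, where FTL, AKR1B10 and AKR1C2 stood, had a median ratio of -0.67. Whether the list differs from genes of like level was not tested.

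All cytosolic ribosomal protein members had a ratio under 0, on the deposited scale. Of 82 members 41 were at least 2-fold lower and 0 higher, beside 7.61% and 10.8% of all members, and the median was -0.999, against -0.57 (H1299) to 0.40 (H1792) in the other lines. RPL22L1, a paralog of RPL22, went from 59.7 to 21.5 FPKM, RPS29 from 54.2 to 20.3, RPS15 from 205 to 88.8 and RPL35A from 135 to 58.8. A549 was under every other line in 77 of the 82. These genes are abundant and short, with a median length of 2981.5 bases, and after centring on length the median was -0.62, 15 were past 2-fold and 47 were under the other lines, beside 20% of all members. On that scale H1299 had a lower list median (-0.64). On the common sum the median was -0.65. No centring on level was made. Protein-coding genes at FPKM 1 or more in both libraries had a median ratio of -0.37 at 10 to 100 FPKM in Mock and -0.81 at 100 to 1000. Whether the list differs from genes of like level was not tested. Processed pseudogenes share reads with many of them.

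Unfolded protein and amino acid stress genes were mixed. Of 31 members 9 were at least 2-fold lower and 0 higher, beside 7.61% and 10.8% of all members, with a median of -0.53 (-0.41 after centring, -0.19 on the common sum). CHAC1, a glutathione-degrading enzyme, went from 13.1 to 2.29 FPKM (576 and 119 reads), PHGDH, the first enzyme of serine synthesis, from 37.8 to 7.66, ASNS, the asparagine synthetase, from 70.0 to 16.8 and TRIB3, a pseudokinase, from 66.8 to 21.5. H1299 had ratios of -2.40 and -1.88 for PHGDH and ASNS, and PC9 had 0.41 and 0.99. Chaperones of the same list were near level, such as HSP90B1 (286 to 279) and PDIA4 (142 to 155), which were picked after their values were seen.

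Cholesterol synthesis genes had 25 members, 0 at least 2-fold higher and 1 lower, PMVK (50.4 to 24.7 FPKM), with a median of -0.48 and 15 under every other line (9 after centring), beside 28.2% (20%) of all members. MVK went from 3.97 to 1.96 FPKM, EBP from 39.4 to 20.6 and FDPS from 21.3 to 11.2. Of 31 hypoxia and glycolysis genes 1 was at least 2-fold higher, the regulator PFKFB4 (0.787 to 1.75 FPKM), and 2 were lower, the vasodilator peptide gene ADM (63.5 to 23.3) and the carbonic anhydrase gene CA9 (4.25 to 1.56). The share of all members was 10.8% at least 2-fold higher and 7.61% lower. The median of the hypoxia and glycolysis list was -0.34 but 0.009 on the common sum. All 5 metallothionein members had a ratio under 0, with MT1X at 3.79 and 1.61 FPKM and MT2A at 48.6 and 22.7, and the median was -0.97 (-0.41 after centring). These are short genes, with a median length of 1300 bases. Of the 5, 3 were under every other line (0 after centring), beside 28.2% (20%) of all members.

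Epithelial and lung lineage genes moved in both directions. Of all members 10.8% were at least 2-fold higher and 7.61% lower. Of 21 epithelial members 3 were at least 2-fold higher, SPINT1 (0.119 to 1.17 FPKM), CLDN4 (0.586 to 3.87) and CLDN7 (0.581 to 2.65), a protease inhibitor and a pair of tight junction claudins, and 0 were lower. The abundant simple-epithelium keratins KRT8 and KRT18 went from 1578 to 1021 and from 1405 to 832 FPKM. KRT17 stood at 7.61, above the 0.74 to 3.12 of the other lines, and KRT20, an intestinal keratin, went from 0.784 to 9.85 FPKM with little expression elsewhere. Over 23 keratin and other intermediate filament genes 5 were past 2-fold higher and 0 lower, also NEFH, KRT12 and NES (0.0123 to 1.06, 0.025 to 1.02 and 0.647 to 1.53 FPKM), and the median of -0.18 turned to 0.16 on the common sum and 0.04 after centring. Among 12 lung lineage members the gel-forming mucins MUC5B (2.66 to 22.2 FPKM) and MUC5AC (4.08 to 21.3) and the phosphate transporter SLC34A2 (0 to 1.14, 136 reads, at least 38.4-fold) were higher, with the membrane mucin MUC1 and the ciliated cell factor FOXJ1 also past 2-fold (0.693 to 1.82 and 0.389 to 1.32), and FOXA2, an endoderm transcription factor picked after its values were seen, was the 1 past 2-fold lower (17.3 to 7.05).

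Mesenchymal genes had 20 members, 8 at least 2-fold higher and 1 lower, beside 10.8% and 7.61% of all members. The median was 0.83, with -0.11 to 0.505 in the other lines. SPARC, a collagen-binding matrix protein, went from 0.406 to 16.8 FPKM (42 and 2048 reads), COL6A3 and COL6A1, chains of collagen VI, from 0.0143 to 1.45 and from 4.45 to 22.1, and MMP2, a gelatinase, from 0.359 to 1.71. SPARC stood at 5.06 beside -0.97 (CL1-5) to 3.0 (H1299), and in CL1-5 and H1792 it was already at 44.3 and 42.9 FPKM in Mock. The 1 mesenchymal gene past 2-fold lower was TWIST2, a transcription factor (3.57 to 1.51), and VIM, the mesenchymal intermediate filament, went from 126 to 88.2 FPKM. Both were named after their values were seen.

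Imprinted genes, of which normally 1 parental copy is methylated and silent, included H19, the non-coding RNA beside IGF2. H19 (ENSG00000130600, chr11:2016396-2025782 on GRCh37) went from 4.38 to 622 FPKM (265 and 44419 reads), a ratio of 7.12 with a counting interval of 6.98 to 7.33 for the log2 read ratio. In the other lines H19 went from 0.630 to 71.8 in PC9, from 27.2 to 57.6 in CL1-0, from 23.5 to 62.6 in CL1-5, from 0.0743 to 0.603 in H1299 and from 0.0428 to 0.0737 in H1792. MEG3, another imprinted non-coding RNA, went from 0.432 to 4.49 FPKM, NNAT from 0.0720 to 2.13 and DIRAS3 from 0.189 to 2.104, and all 4 ratios were above those of the other lines. Over the 22 members 8 were past 2-fold higher and 1 lower, the transporter gene SLC22A18 (11.5 to 5.41), beside 10.8% and 7.61% of all members. The median was 0.50, and 10 were above every other line, beside 23.5% of all members.

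Histone cluster genes had 31 members, 19 at least 2-fold higher and 0 lower, beside 10.8% and 7.61% of all members. The median was 1.38 in A549 and 0.55 to 1.55 in the other lines. The 21 at FPKM 1 or more in both libraries had a median of 1.32. The members are short, with a median length of 951 bases. After centring on length the list median was 1.94 in A549 and 0.405 (H1792) to 1.72 (CL1-0) in the other lines. The linker histone gene HIST1H1C went from 27.0 to 215 FPKM (372 and 3490 reads), HIST1H4H from 1.08 to 8.54, HIST1H2BC from 0.895 to 6.54 and HIST1H2AE from 0 to 2.80 (0 and 36 reads). Most histone transcripts lack a poly(A) tail and are poorly captured in mRNA-seq, so their level here is a part of the whole. Zinc finger (ZNF) genes, a large family of DNA-binding repressors, had 272 members, 28 past 2-fold higher and 3 lower, a share of higher genes close to the 10.8% of all members, with a median of 0.31 that was -0.103 over those at FPKM 5 or more. Of them 102 were above every other line, beside 23.5% of all members. The 220 at FPKM 1 or more in both libraries had 9 higher, 2 lower and a median of 0.22. ZNF841 went from 0.218 to 1.236 FPKM, ZNF304 from 0.425 to 1.60 and ZNF853 from 1.101 to 0.246. After centring the ZNF median was 0.23 and 91 were above the other lines.

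Genes of the cytoskeleton were of interest in the study. Of all members 10.8% were at least 2-fold higher and 7.61% lower. Of 12 members of the blood-cell actin regulator list 3 were at least 2-fold higher and 0 lower, with a median of 0.645 in A549 and 0.22 to 0.46 in the other lines. INPP5D, a lipid phosphatase of blood cells, went from 0.0945 to 1.64 FPKM, SH2B3, an adaptor, from 1.30 to 3.40 and CORO1A, an actin-binding coronin, from 0.671 to 1.69, the last at 1.21 beside 0.26 to 2.73. The kinase gene FES (1.06 to 2.04) had a ratio of 0.89, under the 1.199 to 3.21 of the other lines. HCLS1, a cortactin-like gene, went from 0.00916 to 0.846 FPKM and so stayed under the membership limit. Tubulin genes had 19 members with a median of -0.56 (-0.155 after centring), TUBA3D (0.234 to 5.54 FPKM) and TUBA3E (0.0605 to 1.79) past 2-fold higher and the abundant TUBA1A (329 to 173) and TUBB (492 to 269) at -0.92 and -0.87. Kinesin genes had 31 members, 2 past 2-fold higher (KIF5A, 0.224 to 1.26 FPKM, and KIF1A, 0.389 to 1.16) and 2 lower (KIF12, 3.76 to 1.59, and KIF22, 39.7 to 19.2), and a median of -0.05 that turned to 0.30 on the common sum.

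The remaining families were small or mixed, and the share of all members was 10.8% at least 2-fold higher and 7.61% lower. Of 19 HOX members 0 were at least 2-fold higher and 2 lower, HOXB8 (9.40 to 4.28 FPKM) and HOXB9 (8.28 to 4.04), and the median of -0.38 became 0.01 after centring. Of 24 secreted Wnt antagonist and methylated tumour suppressor genes 2 were higher, TCF21 (0.154 to 1.29) and TFPI2 (59.2 to 176), and 2 lower, DKK1 (276 to 122) and the repair gene MGMT (4.97 to 2.39). The median was 0.01 and -0.07 after centring. Among 7 claudins CLDN4 and CLDN7 were past 2-fold higher and the median was 0.42. Among 11 S100 genes S100A9 was higher (0.404 to 3.15) and S100A16 lower (113 to 55.6), and the median of -0.45 was 0.07 after centring. The 4 clustered protocadherin members had ratios of 0.13 to 0.935, with no gene past 2-fold.

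**Figure D3:**
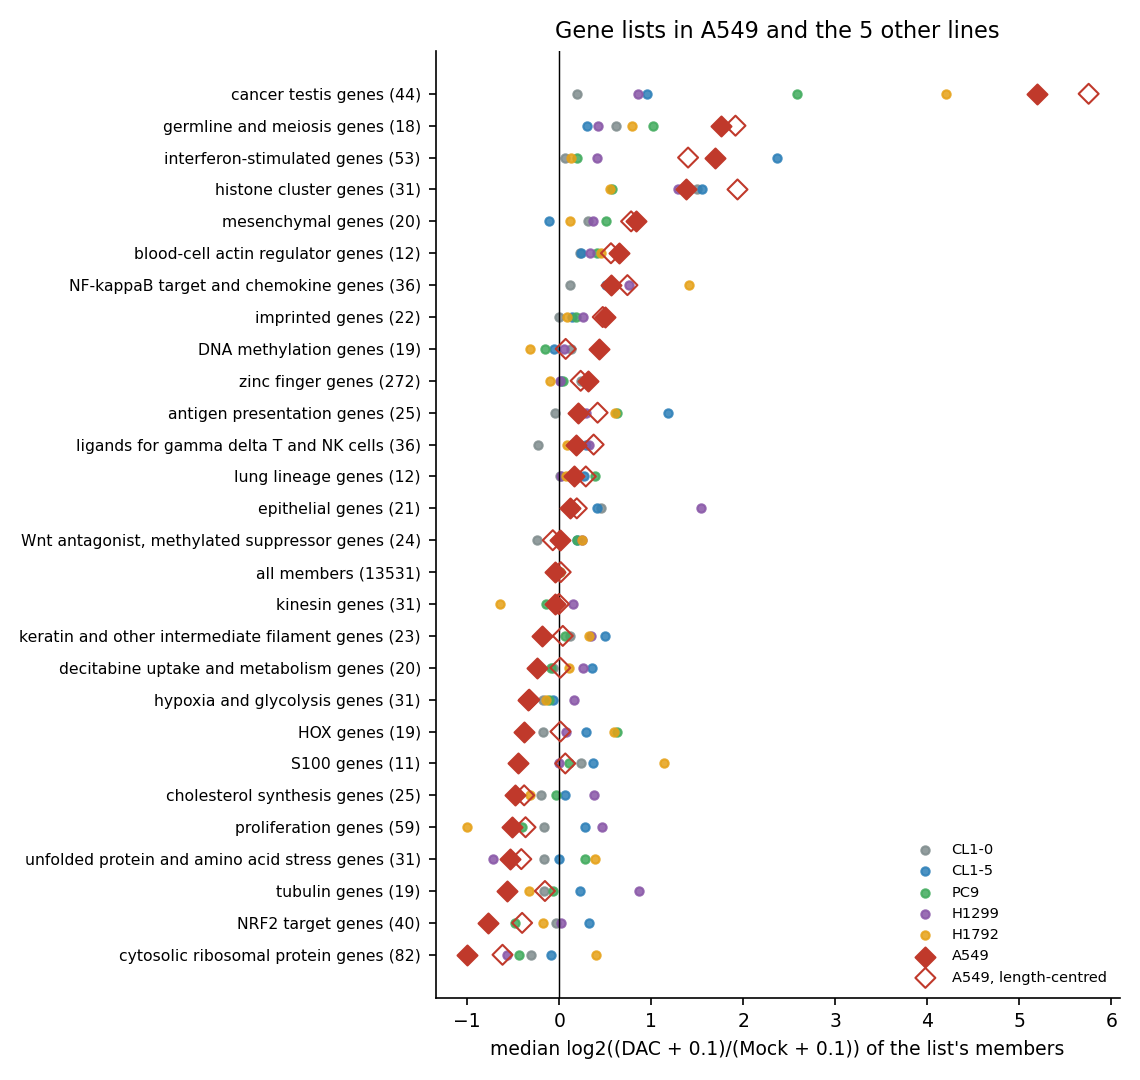
Median log2((DAC + 0.1)/(Mock + 0.1)) of the members of gene lists with 11 or more members (x axis; rows are the lists shown, with the number of members), in A549 (filled red), in A549 after subtracting the median of genes of like length (open red) and in the 5 other lines (dots). On the deposited scale A549 has the lowest median for ribosomal protein genes (-0.999) and NRF2 targets (-0.77), although after centring H1299 (-0.64) and PC9 (-0.46) are lower, and members were chosen by their level in A549, which favours its high median for cancer testis genes (5.19), while CL1-5 lies above A549 for interferon-stimulated genes (2.37 against 1.69).

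The genes with the lowest ratios among members with 20 or more reads were mostly small RNAs, which this library type captures poorly. RNA5SP202 went from 33 to 2 reads (ratio -4.09), and several 5S ribosomal RNA genes, which share their sequence and cannot be told apart, had 35 and 6 reads each. The protein-coding gene with the lowest ratio was CRABP1, a carrier of retinoic acid, which went from 2.73 to 0.319 FPKM (58 and 8 reads, counting interval -4.38 to -2.02). It was at or near 0 in all libraries of the other lines. The most abundant genes apart from FTL were mitochondrial, such as ND4 (6791 to 7749 FPKM) and COX1 (11821 to 10263), with ratios of 0.19 and -0.20.

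Across the 13531 members the A549 ratios were most like those of CL1-0 and PC9, with Pearson's r across genes of 0.448 and 0.423, followed by CL1-5 (0.271), H1299 (0.247) and H1792 (0.163). After centring on length these were 0.468, 0.437, 0.282, 0.263 and 0.191. Over the 10270 protein-coding genes at FPKM 1 or more in both A549 libraries they were 0.442 (CL1-0), 0.330 (PC9), 0.095 (CL1-5), 0.118 (H1299) and -0.085 (H1792), where CL1-5 and H1299 changed places and H1792 was below 0. The values are descriptions across genes, which are not independent replicates, and each pair of ratios also shares the membership rule set by A549. Level was not centred. Of the 10270 genes, those at 100 to 1000 FPKM in A549 Mock had median ratios of -0.30 in CL1-0 and -0.34 in PC9. In CL1-5, H1299 and H1792 these medians were 0.14, -0.001 and 0.16. Whether a shared trend with level has a part in the correlations was not tested. The A549 ratio lay above the ratios of all 5 other lines in 3178 members (23.5%) and below them in 3820 (28.2%), and after centring on length in 23.0% and 20%.

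**Figure D4:**
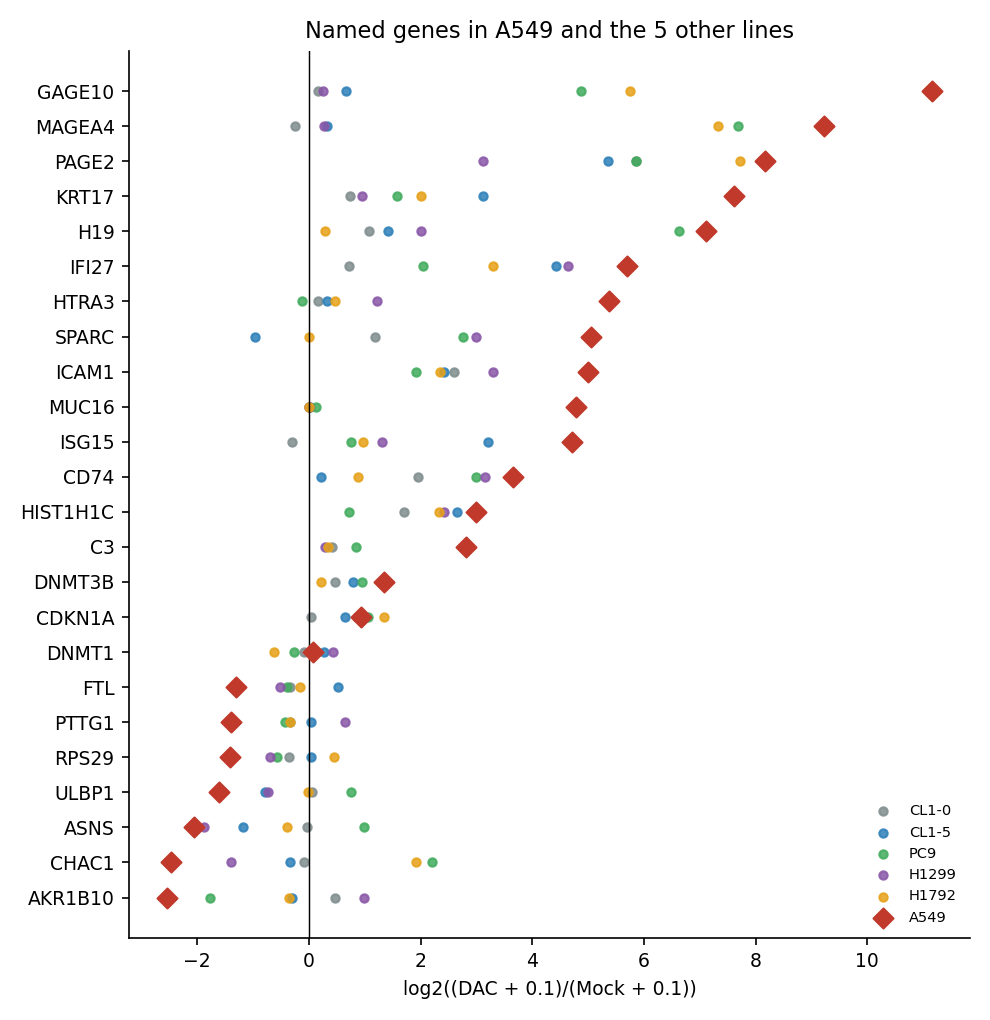
log2((DAC + 0.1)/(Mock + 0.1)) of named genes (x axis; 1 row per gene) in A549 (red diamond) and the 5 other lines (dots). KRT17, HTRA3, ICAM1 and MUC16 stand to the right of all other lines, FTL, RPS29, PTTG1 and AKR1B10 to the left, and PAGE2, DNMT3B and CDKN1A near or within their spread.

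Whether A549 differed from the other lines was tested gene by gene with limma on the log2 ratios of the 6 lines, in which the spread comes from the other 5. Of 18098 genes fitted, 27 were higher in A549 (0.149%) and 2 lower (0.0111%) at a Benjamini-Hochberg adjusted p under 0.05. At an unadjusted p under 0.05 there were 1140 and 934. Of the 29 called genes 15 lie on chromosome Y and are not named, and 25 were under FPKM 1 in every library of the other lines, so that their spread was close to 0. In simulated counts with no DAC effect in the other lines this test made more false calls than its threshold allows, and limma-voom made fewer. Without the Y genes the fit called 0 genes, with 1120 and 927 at an unadjusted p under 0.05 and a smallest adjusted p of 0.111. Restricted to the 17502 genes with an FPKM of at least 1 in another line it also called 0 (985 and 876 at an unadjusted p under 0.05), and limma-voom on the recovered reads called 13, of which 12 lie on chromosome Y. Of the genes described above, examples that missed the threshold were ICAM1 (difference 2.48, SE 0.50, limma adjusted p = 0.257), KRT17 (5.93, SE 0.89, 0.108) and GAGE10 (8.81, SE 2.31, 0.348).

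The 2 protein-coding genes called outside chromosome Y were HTRA3 and MUC16. HTRA3, a secreted serine protease (ENSG00000170801, chr4:8271481-8308825 on GRCh37), went from 0.239 to 14.01 FPKM in A549 (17 and 1177 reads). In the other lines it went from 0.842 to 0.956, 2.16 to 2.72, 2.36 to 2.15, 0.0316 to 0.205 and 120 to 166 in CL1-0, CL1-5, PC9, H1299 and H1792. The A549 ratio of 5.38 was 4.97 above the mean of the others (SE 0.51, limma adjusted p = 0.0318), whose highest ratio was 1.21. MUC16, the membrane mucin that carries the CA125 epitope (ENSG00000181143, chr19:8959520-9121066), went from 0.0373 to 3.70 FPKM in A549 (35 and 4102 reads) and from 2.25 to 2.46 in PC9, and stayed under 0.002 FPKM in the other 4 lines. The MUC16 ratios of the other lines ran from -0.003 to 0.12, so for this gene too the spread was close to 0. Its difference was 4.76 (SE 0.43, limma adjusted p = 0.0189, and 0.0135 with limma-voom). Both were no longer past the threshold without the chromosome Y genes (adjusted p = 0.111 for each), and HTRA3 was not with limma-voom (0.134). Without the chromosome Y genes limma-voom called neither, so its call of MUC16 was lost as well.

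The other called genes outside chromosome Y were small or non-coding RNAs and pseudogenes with few reads. RNU6-1069P and RDM1P4 had 0 reads in Mock and 16 in DAC, MIR4512 had 0 and 4, and the pair called lower, ST6GAL2-IT1 and RNA5SP335, had 13 and 3 reads in Mock and 0 in DAC. The higher library of these genes held 3 to 16 reads, and the spread between cultures at such depth was not measured.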

How the data were processed

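The mRNA libraries of A549 and of 5 other lung cancer lines, 1 Mock and 1 DAC library each, were analysed from 1 expression table. The authors trimmed the reads with Trimmomatic, aligned them to hg19, counted them on GENCODE genes and deposited FPKM values computed with DESeq2 1.24.0. The paper's methods name RSEM with bowtie2 and the submitters' processing notes name TopHat2 2.1.1 as the aligner. The deposited mean signal over all libraries (mean normalized reads per gene) was used to recover gene length and whole reads, and 100% of the values checked came out whole within 0.02 reads. The authors called broad ATAC-seq peaks with MACS2 2.2.5 and deposited their fold enrichment, which ranked the peaks here. The authors' own fold changes and p-values were not used, nor were the ATAC-seq files of CL1-5, PC9 and H1299.

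Ratios were log2((DAC + 0.1)/(Mock + 0.1)), and members had an FPKM of at least 1 in either A549 library. Reads on genes were 24686736 and 24720109 in A549, and 3 reads were the floor for a gene at 0. The ratios of A549 were tested against the mean of the other lines with limma 3.58.1 in R 4.3.3, with Benjamini-Hochberg adjustment over 18098 genes, and with limma-voom as an alternative. On simulated data the limma test made more false calls than its adjusted threshold allows, in part among genes silent in the other lines, and limma-voom made fewer. The simulated counts held no DAC effect in the other lines, so they lacked the spread of responses between lines that the real fit rests on. Read ratios carry exact (Clopper-Pearson) 95% intervals. Printed promoters came from RefSeq (GRCh38.p14). Its table held 72.8% of the switched-on protein-coding genes, too few for a comparison, so CG counts were made on GRCh37. Python 3.11.15, pandas 2.3.3 and scipy 1.17.1 were used. Symbols came from the table for 22185 genes and from the annotation for 13267, and 624 had none.

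Named genes were the 15 highest and 15 lowest ratios among members with 20 or more reads, the 8 highest and 8 lowest differences from the other lines among called genes, up to 4 members per list with the largest absolute ratio and any that defines the list, ICAM1, CORO1A, HCLS1, FES, DNMT1, DNMT3A, DNMT3B and UHRF1, and the 8 members highest in Mock. All other genes named, whether marked so in the text or not, were chosen after their values were seen, to name the remaining genes of a small count or for their known role. Members and gene lists were chosen with earlier results of these data known. The centring on gene length, the fits without chromosome Y or in genes expressed elsewhere, the counts with both libraries at FPKM 1 or more, the CG windows of GRCh37 and the limit of 20 reads on switched-on genes were added after the data were seen. Some genes and gene lists are not reported here.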

Additional observations from a re-analysis of the deposited data

Results flagged for a closer look

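The ratios of HTRA3 and MUC16 were flagged because they differed between A549 and the other 5 lines by the limma test of that difference. For HTRA3 the difference was 4.97 and for MUC16 it was 4.76, with the values given above, and both lost the call when chromosome Y genes were left out of the fit. Limma-voom without those genes also called neither. A further 37 values were compared across the 6 lines for a single line far from the others, and A549 was that line in 0 of them. Chance alone marks any 1 of the 6 lines in about 1 in 20 such groups, and A549 itself in fewer, so the 0 says little.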

How the results depend on the processing

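Each line had 1 library per treatment, so no result has a replicate check, and no interval covers the spread between cultures. Each ratio pairs the Mock and DAC library of 1 line, and there were no replicate numbers for a further block.

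Members at least 2-fold higher and lower numbered 859 and 593 with 1 as pseudocount, 2411 and 385 on the common sum, 434 and 623 at FPKM 5 or more, 4944 and 1878 with no filter, 617 and 106 at 4-fold, and 522 higher with both libraries at FPKM 1. After centring on length 434 were lower. Switched-on genes were 122 with DAC at FPKM 2 or more. Switched-off genes were 115 with silence set at 3 reads, 4 at FPKM 2 and 1 at 20 reads. Genes above and below the other lines were 4939 and 1984 on the common sum and 8081 and 6106 with no filter, and 1384 were above at FPKM 5.

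The limma calls higher and lower were 86 and 15 with 1 as pseudocount, 6 and 0 at FPKM 5, 254 and 53 with no filter, 43 and 4 with no trend, 16 and 0 with quantile normalization, and 13 and 0 with voom. They were 0 and 0 both without chromosome Y and in genes expressed elsewhere. Calls lower were 0 on the common sum and after centring. Leaving out 1 other line gave 5 (without CL1-5) to 34 (without H1299) higher and 0 to 3 lower, and 14 higher without CL1-0. The share of switched-on genes with a peak was 19.1% and 43.4% within 1000 bp. With equal peak numbers it was 41.9% in DAC, and 26.9% gained one.

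List medians stayed within 1 standard deviation of the other 5 lines' values in 203 of 278 settings, and named genes in 192 of 275. That limit can be wide, as the proliferation median stayed within it when it went from -0.51 to -0.16 on the common sum. Of 55 named genes, 2 changed sign on the common sum, 3 with quantile normalization and 6 after centring, being DNMT1 and mitochondrial genes such as COX1. List medians changed sign for 5 lists on the common sum, 5 with quantile normalization, 6 after centring, 7 at FPKM 5 or more, 5 with no filter and 6 with both libraries at FPKM 1. The cause was not tested.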
